A study of Homo sapiens with 42 samples.

Results

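PFI-6, a small molecule that occupies the YEATS domains of ENL (gene MLLT1) and AF9 (gene MLLT3), was given to MV4;11 cells at 100 nM for 6 h. Its RNA was compared with that of MV4;11 cells that received DMSO, the solvent, for 6 h. MV4;11 is an established human myeloid leukaemia line that carries an MLL-AF4 fusion, and all libraries used here were made from it. The comparison was chosen by the treatment and time in the sample titles and holds 6 of the 42 libraries of the series, 3 with PFI-6 and 3 with DMSO, all labelled wild type (WT). Other MV4;11 libraries served as points of comparison: PFI-6 for 24 h at 100 nM with its own DMSO libraries, MS41 and MS41N for 6 h at 100 nM, each with 3 libraries, and untreated cells with guides against ENL (4 libraries, 2 guides) or a control guide (2 libraries). Libraries of MS41 and of MS41N for 24 h at 100 nM, 3 of each, entered the shared fit of the compound libraries but no comparison. MS41 is the ENL degrader the study was built around and MS41N its control compound. The titles write MS41N where the treatment text writes MS47N. The labels do not say whether replicates were separate cultures, so p-values measure the spread between these libraries, which may be technical.

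ENL and AF9 are chromatin readers. Their YEATS domain binds acylated lysines on histone H3, and their other end recruits the super elongation complex and DOT1L, which promote transcript elongation and H3K79 methylation. In leukaemias with MLL fusions, ENL helps to keep HOXA cluster genes, MEIS1, MYB and MYC expressed. A YEATS ligand blocks the reader pocket and leaves the protein in the cell, whereas a degrader removes the protein.

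The polyadenylated RNA libraries held between 125477399 and 144332653 counted reads with PFI-6 and between 134809118 and 147528818 with DMSO. Mitochondrially encoded genes took between 5.57% and 6.17% of the counts with PFI-6 and between 5.49% and 5.63% with DMSO. All 14 myeloid markers of MV4;11 were above 1 CPM (counts scaled to a fixed library total), and they summed to between 1632 and 1636 CPM with PFI-6 and between 1691 and 1710 CPM with DMSO. B lineage markers summed to at most 8.08 CPM and T and NK markers to at most 8.96 CPM, with 2 of the 14 T and NK markers at 0 in all 6 libraries. Of the 16 erythroid and megakaryocyte markers, 9 were at 0 in all 6 libraries, and of the 13 stromal and endothelial markers 4 were. Those 13 summed to between 126.6 and 129.5 CPM with PFI-6 and between 122.8 and 125.2 CPM with DMSO, nearly all of it PECAM1, which blood cells also express. The part of these marker and mitochondrial shares in the results below was not tested. In bulk RNA, fewer cells of a type and less RNA per cell cannot be told apart.

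PFI-6 changed few transcripts at 6 h, and by little. MYC, HOXA10, PITX1 and CDKN1B were lower, 22 of 86 cytosolic ribosomal protein genes were lower, the immediate early factors NR4A2, KLF6 and JUNB were lower, and the toll-like receptor genes TLR1 and TLR4 were higher. Of 22711 genes tested, 466 (2.05%) were called, which here means a Benjamini-Hochberg adjusted p under 0.05 in edgeR's quasi-likelihood test, with 150 higher (0.66%) and 316 lower (1.39%). The median size of the called changes was 0.16 on the log2 scale, 50 genes changed by at least 0.5 and 14 by at least 1. With a trend on GC content removed from each library, 404 genes (1.78%) were called, 117 higher (0.515%) and 287 lower (1.26%), and 307 genes were called the same way in both fits. The number called depended on every library: it was 304, 108 and 149 without PFI-6 replicates 1, 2 and 3, and 204, 125 and 237 without DMSO replicates 1, 2 and 3. After removal of the GC trend it was 218, 140 and 181 without PFI-6 replicates 1, 2 and 3, and 119 and 221 without DMSO replicates 2 and 3. Of the 466 calls, 392 fell among the 9228 genes with an average level of at least 3 on the log2 CPM scale. The share called over all genes is thus lower than among well measured genes. Groups of CPM did not overlap for 4685 genes (20.6%). Among 82 named genes called at 6 h, 21 were called in each of the 6 fits that left out 1 library, and 67 were called with the GC trend removed. PITX1, KLF6, TLR1 and TLR4 were not among the 21. With the control compound MS41N against the same DMSO libraries, NR4A2, KLF6 and JUNB had log2 fold changes of -0.40, -0.27 and -0.24. Between PFI-6 and MS41N 3 genes were called, which does not show that these compounds act alike.

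The genes bound and driven by MLL fusions are the set most tied to ENL. Of 28 such genes tested, 7 were lower and none was higher, where 1.39% of all genes tested were lower. The 7 were HOXA10, PITX1, MYC, CDKN1B, ZFP36L2, ZEB2 and SATB1. With the GC trend removed 8 were lower, MYB joining them. Their median log2 fold change was -0.04, against 0.01 over all genes tested. The count was 4 without PFI-6 replicate 2, and also 4 without DMSO replicate 2 or DMSO replicate 3.

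MYC encodes a transcription factor that drives growth and ribosome production. Its level was 373, 348 and 358 CPM in the PFI-6 libraries and 406, 413 and 407 CPM in the DMSO libraries. All 3 treated libraries lay below all 3 controls. The log2 fold change was -0.18 ± 0.03 (SE, adjusted p = 0.000293), and -0.17 with the GC trend removed (adjusted p = 0.000145).

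HOXA10, a homeobox factor of blood progenitors, stood at 24.5, 25.1 and 24.8 CPM with PFI-6 and at 29.4, 30.2 and 30.0 CPM with DMSO. The groups were apart and tight, with a log2 fold change of -0.27 ± 0.05 (SE, adjusted p = 0.000772) and -0.25 with the GC trend removed (adjusted p = 0.00105). CDKN1B, which encodes the cell cycle inhibitor p27, was at 128, 131 and 131 CPM with PFI-6 and at 142, 147 and 147 CPM with DMSO. Its log2 fold change was -0.16 ± 0.03 (SE, adjusted p = 0.00229), and -0.16 with the GC trend removed. ZFP36L2, an RNA decay factor of progenitors, was between 451 and 473 CPM with PFI-6 and between 504 and 505 CPM with DMSO, a log2 fold change of -0.12 (adjusted p = 0.00239). MYC, HOXA10, CDKN1B and ZFP36L2 were among the genes called in every fit that left out 1 library.

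PITX1, a homeobox transcription factor, was at 202, 193 and 187 CPM with PFI-6 and at 240, 227 and 231 CPM with DMSO. The groups did not overlap. Its log2 fold change was -0.26 ± 0.06 (SE, adjusted p = 0.0283), and -0.15 with the GC trend removed (adjusted p = 0.000782). The call was lost without any 1 of PFI-6 replicate 2, PFI-6 replicate 3 or the 3 DMSO replicates, where the adjusted p was between 0.0686 and 0.129.

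Other classical targets did not pass the test. HOXA9 was at 54.1, 55.1 and 56.6 CPM with PFI-6 and at 56.3, 61.5 and 60.2 CPM with DMSO, so that the groups overlapped (log2 fold change -0.10, adjusted p = 0.112). MEIS1, the cofactor of HOXA9, had a log2 fold change of -0.06 (adjusted p = 0.368). MYB had -0.09 (adjusted p = 0.0594), and -0.10 with the GC trend removed (adjusted p = 0.0228). BAHCC1 had -0.14 (adjusted p = 0.228) and -0.05 with the GC trend removed.

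The genes of the readers themselves did not pass the test. MLLT1, which encodes ENL, was at 119, 118 and 117 CPM with PFI-6 and at 132, 125 and 123 CPM with DMSO, a log2 fold change of -0.10 (adjusted p = 0.101) and of -0.02 with the GC trend removed. MLLT3, which encodes AF9, was between 1.43 and 1.94 CPM in all 6 libraries. None of the 4 YEATS domain genes was called in either fit. Of 24 genes of the super elongation, DOT1L, PAF and menin complexes, 1 was higher: AFF4, the scaffold of the super elongation complex (log2 fold change 0.11, adjusted p = 0.0315, and 0.09 with adjusted p = 0.0719 when the GC trend was removed). Over all genes tested 0.66% were higher, so that 1 call tells little. The AFF4 call was lost without any 1 library but PFI-6 replicate 1.

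**Figure D1:**
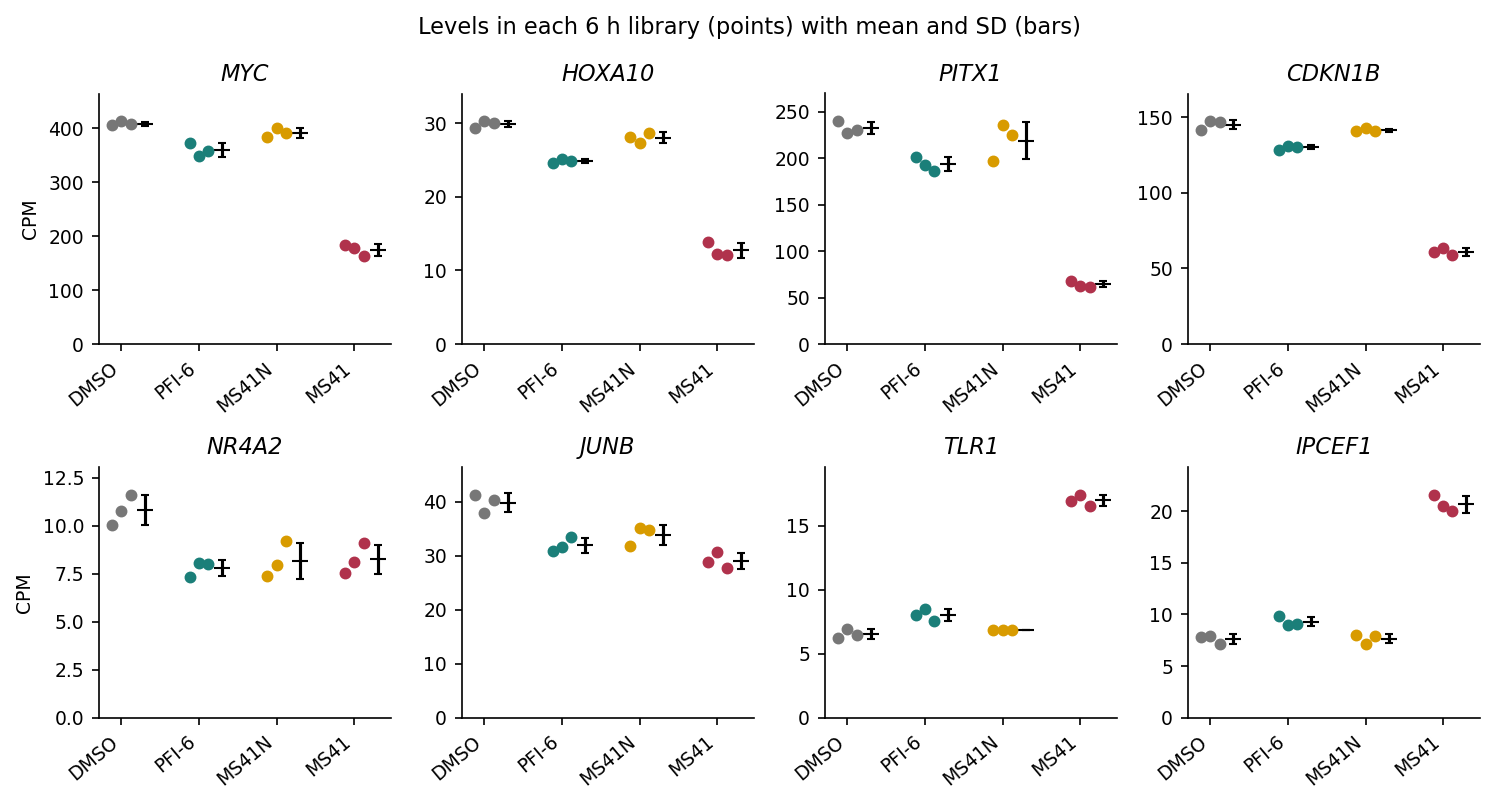
CPM of 8 genes in the single 6 h libraries of MV4;11 (points), with mean and SD (bars, 3 libraries a group). PFI-6 lies below DMSO for MYC, HOXA10, PITX1, CDKN1B, NR4A2 and JUNB and above it for TLR1 and IPCEF1, and MS41 lies much farther away for MYC, HOXA10, PITX1, CDKN1B, TLR1 and IPCEF1.

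All 3 compounds were given at 100 nM for 6 h, so the treated groups could be compared directly, with no DMSO library in the contrast. These are 2 pairs, PFI-6 with MS41 and PFI-6 with MS41N. Their fold changes against DMSO share the same 3 DMSO libraries and are set side by side only as values. Against MS41, 4422 genes (19.5%) differed, 2299 of them higher with PFI-6 (10.1%) and 2123 lower (9.35%), and 4711 (20.7%) differed with the GC trend removed, 2462 higher (10.8%) and 2249 lower (9.9%). Against MS41N, 3 genes (0.0132%) differed, all lower with PFI-6, and 5 (0.022%) with the GC trend removed. At an unadjusted p under 0.05, 1393 genes differed between PFI-6 and MS41N, and DESeq2 called 25. MS41N against DMSO gave 73 calls (0.321%), 6 higher (0.0264%) and 67 lower (0.295%), and with the GC trend removed 131 (0.577%), 10 higher (0.044%) and 121 lower (0.533%). MS41 against DMSO gave 5897 calls (26%), 2768 higher (12.2%) and 3129 lower (13.8%), and with the GC trend removed 6130 (27%), 2864 higher (12.6%) and 3266 lower (14.4%).

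MLL target genes were far lower with MS41 than with PFI-6: 23 of the 28 were higher with PFI-6 than with MS41, and 1 was lower. In this contrast 10.1% of all genes tested were higher with PFI-6 and 9.35% lower. For MYC, MS41 left 184, 178 and 163 CPM. Against the shared DMSO libraries the log2 fold change of MYC was -1.23 with MS41, -0.18 with PFI-6 and -0.06 with MS41N. The direct difference was 1.04 in log2 (PFI-6 over MS41, 95% interval 0.98 to 1.10, adjusted p = 2.33e-29). HOXA9 was at 19.6, 19.6 and 20.01 CPM with MS41, a direct difference of 1.48 (95% interval 1.41 to 1.56). PITX1 differed by 1.59 (95% interval 1.46 to 1.72) and CDKN1B by 1.09 (95% interval 1.03 to 1.15). TLR1, at 17.0, 17.4 and 16.5 CPM with MS41, was lower with PFI-6 (log2 difference -1.08, 95% interval -1.20 to -0.96).

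The same genes could not be separated between PFI-6 and MS41N after adjustment over all genes. MYC differed by -0.12 in log2 (95% interval -0.18 to -0.06, adjusted p = 0.203). HOXA10 differed by -0.17 (95% interval -0.27 to -0.08, adjusted p = 0.273), and its MS41N libraries held 28.1, 27.3 and 28.7 CPM. CDKN1B differed by -0.12 (95% interval -0.18 to -0.06, adjusted p = 0.206). TLR1 differed by 0.23 (95% interval 0.11 to 0.35, adjusted p = 0.273). These intervals are for single genes, and the missed threshold does not show that PFI-6 and MS41N act alike.

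Among the genes called between PFI-6 and MS41N were INSIG1 and SCD, named after their values were seen. INSIG1 holds the sterol sensor in the endoplasmic reticulum, and SCD desaturates fatty acids. SCD was at 284, 288 and 289 CPM with PFI-6, at 311, 312 and 312 CPM with MS41N and at 291, 286 and 286 CPM with DMSO. PFI-6 and DMSO libraries overlapped and the MS41N libraries stood above both. INSIG1 differed by -0.17 and SCD by -0.12, each with an adjusted p of 0.0301. INSIG1 and SCD had log2 fold changes of -0.02 and -0.00 with PFI-6 against DMSO. Of 31 genes of cholesterol and fatty acid synthesis, none was called for PFI-6 against DMSO in either fit, and 4 were higher with MS41N. Once the GC trend was removed INHBA, a subunit of activin, and TRGC1, a T cell receptor constant segment, were also called between PFI-6 and MS41N, by -0.16 (adjusted p = 0.0307) and -0.14 (adjusted p = 0.00151). TRGC1 was at 317, 320 and 329 CPM with PFI-6 and at 354, 364 and 375 CPM with DMSO, a log2 fold change of -0.18 (adjusted p = 2.23e-05). The count against MS41N was 1 without PFI-6 replicate 3 or without MS41N replicate 2, and 5 without MS41N replicate 1.

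**Figure D2:**
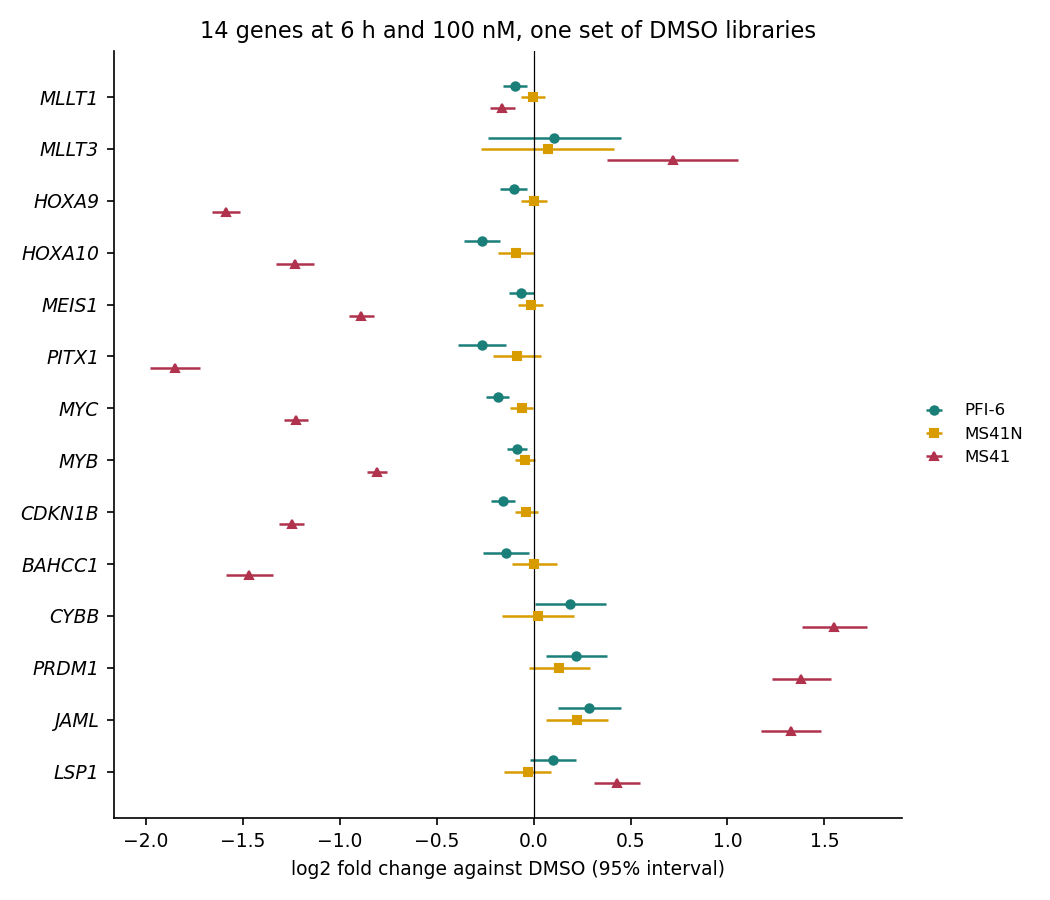
Log2 fold change with its 95% interval (x) for 14 genes of ENL biology (rows) with PFI-6, MS41N and MS41 at 6 h, each against the same 3 DMSO libraries. PFI-6 values lie between -0.27 and 0.29, while MS41 reaches -1.85 for PITX1 and 1.55 for CYBB.

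Of 56 MYC targets in ribosome biogenesis and metabolism, 10 were lower and none was higher, with a median log2 fold change of -0.06. The other 46 did not pass the test. Of all genes tested, 1.39% were lower. The list's median transcript GC content was 53.8%. Among 923 well measured genes with 53.2% to 56.7% GC, 50 were lower, with a median log2 fold change of -0.04. With the GC trend removed 4 of the 56 were lower, where 1.26% of all genes tested were. PHB, a mitochondrial inner membrane scaffold, was at 83.2, 81.9 and 83.0 CPM with PFI-6 and at 93.8, 93.6 and 92.6 CPM with DMSO. The log2 fold change of PHB was -0.17 (adjusted p = 0.000957), with -0.16 once the GC trend was removed. NPM3, a histone chaperone of the nucleolus, had -0.18 (adjusted p = 0.0351) and NOC4L, a ribosome assembly factor, had -0.28 (adjusted p = 0.0298). NOC4L was not called with the GC trend removed (adjusted p = 0.104). NPM3 was called without PFI-6 replicate 1 and in no other fit that left out 1 library, and NOC4L without PFI-6 replicate 1 or DMSO replicate 1 and in no other. The list's count was 3, 1 and 1 without PFI-6 replicates 1, 2 and 3, and 2, 2 and 5 without DMSO replicates 1, 2 and 3.

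Cytosolic ribosomal proteins, which form the body of the ribosome, held 22 lower genes and no higher one among 86 tested. The median was -0.07, and 17 were lower with the GC trend removed. Of all genes tested, 1.39% were lower, and 1.26% with the GC trend removed. RPS14 stood at 679, 672 and 679 CPM with PFI-6 and at 755, 761 and 738 CPM with DMSO, a log2 fold change of -0.15 ± 0.03 (SE, adjusted p = 0.0013). RPS21 was at 167, 163 and 166 CPM with PFI-6 and at 197, 194 and 182 CPM with DMSO, a log2 fold change of -0.21 (adjusted p = 5.85e-05). RPS14 and RPS21 were called in every fit that left out 1 library. The list's count was 13, 4 and 9 without PFI-6 replicates 1, 2 and 3, and 9, 4 and 16 without DMSO replicates 1, 2 and 3. With MS41N against the same DMSO libraries, 6 of the 86 were lower and the median was -0.05, and none of them was called between PFI-6 and MS41N. RPS14 held 686, 678 and 674 CPM with MS41N, a direct difference of -0.01 (95% interval -0.06 to 0.05).

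Mitochondrial ribosomal proteins held 2 lower genes of 78, MRPL34 and MRPL11, where 1.39% of all genes tested were lower. Well measured genes were called more often than all genes tested, so these 2 calls tell little. MRPL34 lost its call without DMSO replicate 1 (adjusted p = 0.0577), and MRPL11 without any 1 library but PFI-6 replicate 1 (adjusted p between 0.0663 and 0.162). Oxidative phosphorylation held 3 lower genes of 56, among them ATP5MC1, a subunit of the ATP synthase ring (log2 fold change -0.19, adjusted p = 0.0129), and 6 with the GC trend removed. ATP5MC1 lost its call without PFI-6 replicates 2 or 3 or DMSO replicate 1 (adjusted p between 0.0562 and 0.165). The count of 3 was between 0 and 1 without any 1 of PFI-6 replicates 1, 2 and 3 or DMSO replicates 1 and 2. Heat shock chaperones held 3 lower genes of 15: HSP90AB1 (-0.09), HSPA8 (-0.08) and AHSA1 (-0.10), all 3 called also with the GC trend removed. HSP90AB1 and HSPA8 lost their calls without any 1 of the 6 libraries (adjusted p between 0.0764 and 0.161), and AHSA1 without any 1 but DMSO replicate 2 (adjusted p between 0.0542 and 0.16). CALR, a chaperone of the endoplasmic reticulum, was at 2126, 2157 and 2188 CPM with PFI-6 and at 2385, 2330 and 2341 CPM with DMSO, a log2 fold change of -0.12 (adjusted p = 0.00229). In the stress list it belongs to, 2 of 35 genes were lower and 1 was higher, ALDH1L2 (0.10). With the GC trend removed 3 were lower and none was higher, ALDH1L2 having an adjusted p of 0.0908, and its call was lost without any 1 of the 6 libraries.

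Among 16 stem and progenitor genes, SOX4, IGF2BP2 and ZFP36L2 were lower and none was higher, where 1.39% of all genes tested were lower. IGF2BP2, an RNA-binding protein, had -0.09 and lost its call without any 1 library but DMSO replicate 2. SOX4, a progenitor transcription factor, was at 125, 127 and 126 CPM with PFI-6 and at 140, 138 and 138 CPM with DMSO. The log2 fold change was -0.14 ± 0.03 (SE, adjusted p = 0.0036) and -0.14 with the GC trend removed. With MS41N it was -0.12 against the same DMSO libraries, and the direct difference between PFI-6 and MS41N was -0.02.

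Of 42 genes of S phase and replication, 2 were higher, MCM10 and PRIM1, and none was lower, where 0.66% of all genes tested were higher. The count was 3 higher with the GC trend removed. MCM10, which loads replication factors onto origins, was at 123.0, 119 and 119 CPM with PFI-6 and at 109, 112 and 110 CPM with DMSO (log2 fold change 0.13, adjusted p = 0.0046), and was called in every fit that left out 1 library. PRIM1, a primase subunit, had 0.16 and lost its call without PFI-6 replicates 2 or 3 or DMSO replicate 3. CENPF lost its call without DMSO replicate 2 (adjusted p = 0.0563). CENPE and CENPF, motor and matrix proteins of the kinetochore, were higher among 35 mitosis genes, by 0.10 and 0.14. CENPE was not called with the GC trend removed (0.01, adjusted p = 0.885), and it lost its call without any 1 of the 6 libraries (adjusted p between 0.0578 and 0.17).

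Immediate early genes answer signals and stress within minutes. Of 34 tested, 8 were lower and 1, KLF10, was higher, with a median log2 fold change of -0.15 against 0.01 over all genes tested. The other 25 did not pass the test. Of all genes tested, 1.39% were lower and 0.66% higher. With the GC trend removed 5 were lower and 1 was higher. NR4A2, an orphan nuclear receptor, was at 7.31, 8.05 and 8.03 CPM with PFI-6 and at 10.1, 10.8 and 11.6 CPM with DMSO. The groups were well apart, with a log2 fold change of -0.47 ± 0.09 (SE, adjusted p = 0.00417) and -0.48 with the GC trend removed. JUNB, a subunit of the AP-1 factor, was at 30.8, 31.6 and 33.5 CPM with PFI-6 and at 41.3, 37.9 and 40.4 CPM with DMSO (log2 fold change -0.32, adjusted p = 0.000101, and -0.23 with the GC trend removed). KLF6, a zinc finger factor, was at 54.9, 57.8 and 59.3 CPM with PFI-6 and at 68.3, 74.3 and 73.2 CPM with DMSO, a log2 fold change of -0.33 (adjusted p = 0.0108). The KLF6 call was lost without PFI-6 replicate 1, PFI-6 replicate 2 or DMSO replicate 2, where the adjusted p was between 0.0514 and 0.0659. DUSP1, a phosphatase of MAP kinases, had -0.48 (adjusted p = 0.0455), lost its call without any 1 library but PFI-6 replicate 3, and was not called with the GC trend removed (-0.46, adjusted p = 0.0708).

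Not all immediate early genes were lower. FOS was at 182, 216 and 249 CPM with PFI-6 and at 240, 245 and 255 CPM with DMSO, so that the groups overlapped. EGR1 was at 104, 98.5 and 135 CPM with PFI-6 and at 87.3, 90.7 and 91.1 CPM with DMSO, higher in each treated library, with a log2 fold change of 0.32 (adjusted p = 0.123). The list's count of 9 was 5 and 3 without PFI-6 replicates 1 and 2, and 5, 4 and 5 without DMSO replicates 1, 2 and 3. The falls stood beside like values for the control compound: against the same DMSO libraries, NR4A2 had -0.40, JUNB -0.24 and KLF6 -0.27 with MS41N. None of the 34 was called between PFI-6 and MS41N, where the difference of NR4A2 was -0.07 (95% interval -0.26 to 0.12). SOCS3, a feedback inhibitor of JAK-STAT signalling, had -0.29 (adjusted p = 0.0122), with -0.35 for MS41N. The SOCS3 call was lost without PFI-6 replicates 1 or 2 or DMSO replicate 2, where the adjusted p was between 0.0639 and 0.0891.

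Genes of myeloid maturation divided. Of 43 tested, TLR1, JAML and TLR4 were higher, KLF4 and IRF8 were lower, and the median was 0.03. Of all genes tested, 0.66% were higher and 1.39% lower. TLR1, a toll-like receptor for bacterial lipopeptides, was at 8.04, 8.46 and 7.56 CPM with PFI-6 and at 6.24, 6.97 and 6.44 CPM with DMSO. The log2 fold change was 0.29 ± 0.06 (SE, adjusted p = 0.00557), and 0.25 with the GC trend removed. The TLR1 call was lost without PFI-6 replicate 2 (adjusted p = 0.0739) and without DMSO replicate 1 (adjusted p = 0.0526). TLR4, the receptor for lipopolysaccharide, was at 30.1, 33.6 and 33.3 CPM with PFI-6 and at 26.4, 28.6 and 29.3 CPM with DMSO (log2 fold change 0.20, adjusted p = 0.0196), and was not called without PFI-6 replicates 2 or 3 or DMSO replicates 1 or 2 (adjusted p between 0.0577 and 0.168). JAML, an adhesion molecule of myeloid cells, had 0.29 (adjusted p = 0.046) and lost its call without any 1 of the 6 libraries. IRF8, a factor of monocyte fate, was at 660, 659 and 665 CPM with PFI-6 and at 709, 719 and 721 CPM with DMSO (log2 fold change -0.11, adjusted p = 0.00229). CYBB, a subunit of the phagocyte oxidase, PRDM1, a repressor of lymphoid and myeloid fate, and LSP1, an actin-binding leukocyte protein, had log2 fold changes of 0.19, 0.22 and 0.10 and were not called (adjusted p = 0.327, 0.143 and 0.468). The list's count of 5 was 3, 1 and 2 without PFI-6 replicates 1, 2 and 3, and 1, 2 and 3 without DMSO replicates 1, 2 and 3.

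The following lists held 2 calls or fewer as counted, where 2.05% of all genes tested were called, so that these counts tell little. Interferon response genes held 1 higher, PARP14 (0.14), and 1 lower, BST2 (-0.12), of 43. BST2 was not called with the GC trend removed (-0.09, adjusted p = 0.155) and lost its call without any 1 library but PFI-6 replicate 1. PARP14 lost its call without PFI-6 replicates 1 or 2 or DMSO replicates 1 or 2 (adjusted p between 0.0505 and 0.127). None of 26 inflammatory NF-kB genes, 27 genes of hypoxia and glycolysis or 20 aminoacyl-tRNA synthetases was called in either fit. Of 12 MHC class II genes, none was called, and 1 was higher with the GC trend removed. The p53 targets held 1 lower gene of 30, TRIAP1 (-0.12, and -0.13 with the GC trend removed). The TRIAP1 call was lost without any 1 of the 6 libraries (adjusted p between 0.0864 and 0.204), and with RLE factors or a replicate block.

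**Figure D3:**
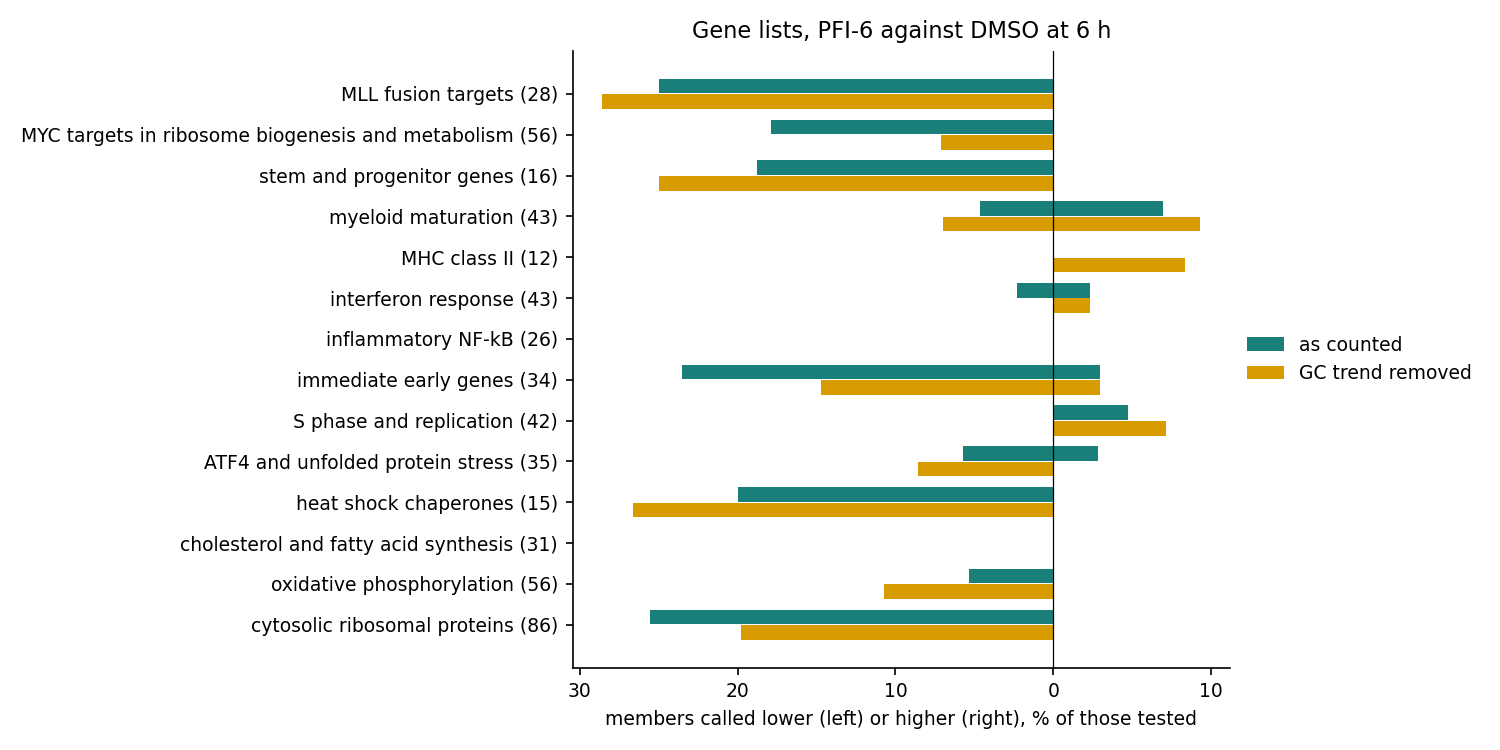
Share of tested members called lower (left) or higher (right) for 14 gene lists with PFI-6 at 6 h, as counted and with the GC trend removed, with the number tested in brackets. MLL fusion targets (7 of 28), cytosolic ribosomal proteins (22 of 86) and immediate early genes (8 of 34) have the longest bars to the left as counted. Over all genes tested, 1.39% were lower and 0.66% higher as counted.

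The protein-coding genes with the largest changes, picked after their values were seen, were few and modest. The rises were led by STRADA, the pseudokinase that activates LKB1. It was at 10.3, 9.08 and 10.1 CPM with PFI-6 and at 6.97, 7.52 and 8.38 CPM with DMSO (log2 fold change 0.37, adjusted p = 0.00537). HIPK2, a nuclear kinase, had 0.32, NFAT5, the factor of the osmotic stress response, had 0.30, and IPCEF1, an adaptor of ARF6 exchange factors, had 0.29. IPCEF1 was at 9.82, 8.98 and 9.10 CPM with PFI-6 and at 7.78, 7.96 and 7.12 CPM with DMSO, and at 21.6, 20.5 and 19.98 CPM with MS41. The calls of STRADA, NFAT5 and IPCEF1 were each lost without 1 library, which was DMSO replicate 1, PFI-6 replicate 3 and DMSO replicate 3 (adjusted p = 0.0641, 0.0529 and 0.0568). HIPK2 lost its call without PFI-6 replicate 2 (adjusted p = 0.0902) and without DMSO replicate 3 (adjusted p = 0.0606).

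Among the 12 largest falls of well measured genes called in both fits, most were processed pseudogenes, copies of spliced transcripts that share sequence with their parent gene. Of 3055 tested, 76 were lower (2.49%) and 5 higher, and with the GC trend removed 66 were lower. They made up 24.1% of all falls and 13.5% of the genes tested. RPL9P28 was at 6.66, 7.28 and 7.18 CPM with PFI-6 and at 10.3, 11.1 and 11.0 CPM with DMSO (log2 fold change -0.61, adjusted p = 8.62e-06). RPS10P3 was at 14.8, 14.5 and 15.8 CPM with PFI-6 and at 19.8, 22.4 and 19.6 CPM with DMSO (log2 fold change -0.45). Against the same DMSO libraries RPS10P3 had -0.44 with MS41N, and PFI-6 and MS41N differed by -0.01. Reads can be shared between such copies and their parents, so these values are uncertain, as are those of UQCRHL, a near copy of UQCRH (log2 fold change -0.36), and of the mitochondrial tRNA genes MT-TR (0.66) and MT-TT (0.41). MT-TR was at 0.32 and not called with the GC trend removed (adjusted p = 0.333), and MT-TT lost its call without any 1 of the 6 libraries (adjusted p between 0.0825 and 0.136).

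Fold changes of well measured genes followed the GC content of the transcript. Across 9228 genes with an average level of at least 3 on the log2 CPM scale, the log2 fold change with PFI-6 at 6 h had a Pearson r of -0.445 with GC content, and 0.0479 after a trend on GC content was removed from each library. Over all 22711 genes tested r was -0.0937 as counted. Across the same 9228 genes, PFI-6 against MS41N at 6 h had an r of -0.453. Genes are not independent replicates, and all share the same 6 libraries. Cut into 10 bins of GC content, the median log2 fold change was 0.03 in the poorest bin and -0.08 in the richest. In the poorest bin 34 genes were higher and 2 lower, and in the richest none was higher and 51 were lower. Once the trend was removed the medians were -0.04 and 0.00, and the counts 9 higher and 45 lower in the poorest bin and 4 and 7 in the richest. Libraries of one group differed in it: the median deviation of the richest minus the poorest bin was 0.02, -0.08 and -0.10 in PFI-6 replicates 1, 2 and 3 and 0.12, 0.02 and 0.02 in DMSO replicates 1, 2 and 3. PFI-6 replicate 1 thus lay at the level of DMSO replicates 2 and 3. Whether it came from the cells or from library preparation was not tested.

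**Figure D4:**
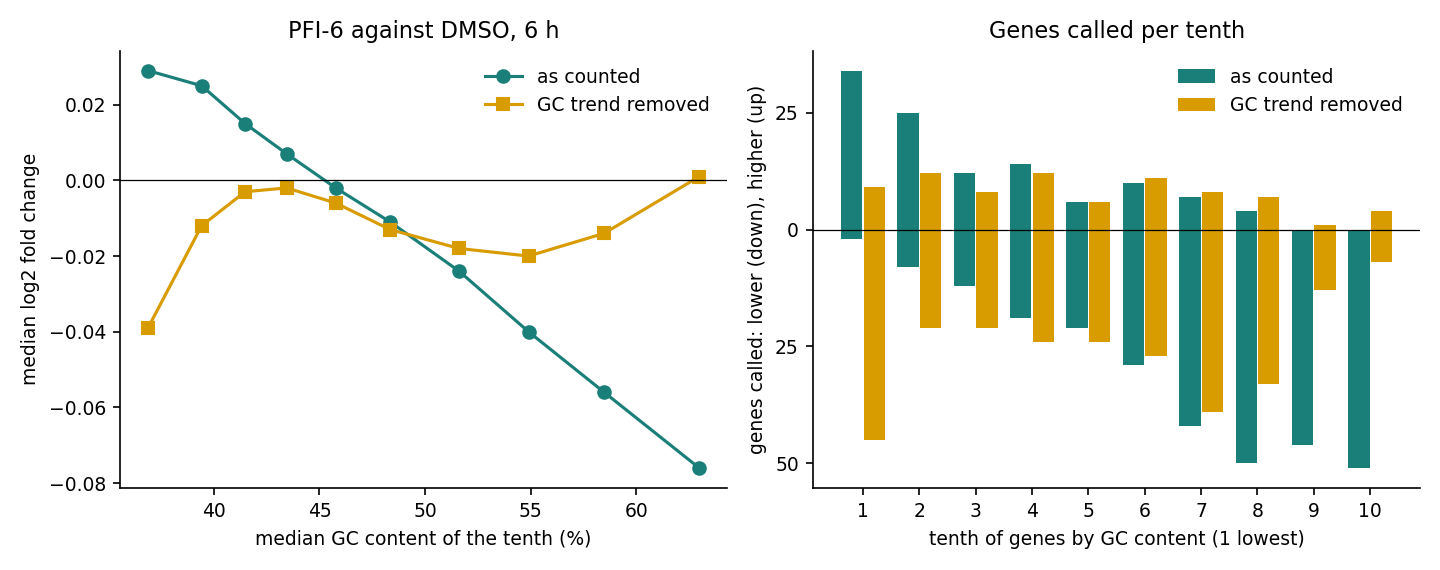
Left, median log2 fold change with PFI-6 at 6 h (y) against the median GC content in percent (x) of each of 10 bins of well measured genes. Right, genes called lower or higher in each bin; as counted the medians fall from 0.03 to -0.08, and with the trend removed they lie between -0.04 and 0.00.

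The first 150 coding bases of 4 transcripts show the range of composition over which the 2 fits part. They are written 5′ to 3′ with every G and C in capitals, from the longest GENCODE 29 transcript of each gene, build hg38. Of the 4, PITX1 and HMX3 are the richest in G and C, TLR1 is the poorest and HOXA10 lies between. The genes lie at chr5:135027735-135034813 (PITX1, minus strand), chr10:123135962-123137741 (HMX3, plus strand), chr7:27170591-27180261 (HOXA10, minus strand) and chr4:38790677-38856817 (TLR1, minus strand).
PITX1: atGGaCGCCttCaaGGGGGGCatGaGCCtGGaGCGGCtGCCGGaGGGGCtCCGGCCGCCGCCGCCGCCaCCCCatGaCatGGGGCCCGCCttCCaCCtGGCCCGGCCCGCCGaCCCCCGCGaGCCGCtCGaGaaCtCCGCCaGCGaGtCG
HMX3: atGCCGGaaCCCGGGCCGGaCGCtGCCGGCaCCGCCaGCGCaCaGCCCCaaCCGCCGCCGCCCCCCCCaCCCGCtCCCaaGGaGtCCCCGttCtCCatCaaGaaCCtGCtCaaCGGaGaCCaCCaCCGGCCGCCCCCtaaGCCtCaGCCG
HOXA10: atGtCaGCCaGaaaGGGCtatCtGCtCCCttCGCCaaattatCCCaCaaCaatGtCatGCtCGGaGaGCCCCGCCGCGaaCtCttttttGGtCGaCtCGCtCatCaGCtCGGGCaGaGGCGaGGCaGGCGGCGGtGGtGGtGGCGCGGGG
TLR1: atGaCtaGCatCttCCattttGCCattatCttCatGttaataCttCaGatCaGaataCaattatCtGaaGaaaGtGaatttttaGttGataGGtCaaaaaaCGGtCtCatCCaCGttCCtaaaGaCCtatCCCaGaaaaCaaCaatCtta

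PITX1, with 68.9% GC over its transcript, went from -0.26 to -0.15 when the trend was removed. HMX3, a homeobox gene with 70.9% GC, was at 11.9, 11.7 and 12.3 CPM with PFI-6 and at 13.9, 14.8 and 13.8 CPM with DMSO, and went from -0.25 (adjusted p = 0.0315) to -0.11 (adjusted p = 0.524). CCDC85B, at 67.7% GC, went from -0.28 to -0.17 and also lost its call. Leaving out any 1 of the 6 libraries also ended the call of HMX3 (adjusted p between 0.0585 and 0.151), and leaving out PFI-6 replicates 2 or 3 or DMSO replicates 1 or 2 that of CCDC85B. HOXA10, at 54.2%, kept -0.25 of -0.27. TLR1, at 39.2%, kept 0.25 of 0.29. At the other end TBCA, a tubulin folding cofactor with 32.6% GC, was at 84.2, 85.6 and 88.0 CPM with PFI-6 and at 92.7, 93.2 and 90.2 CPM with DMSO, and was called only with the trend removed (-0.10, then -0.24 with adjusted p = 0.00408). In the bin poorest in GC, removal took the median from 0.03 to -0.04 and the lower calls from 2 to 45. Whether the removal itself made such calls was not tested.

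At 24 h PFI-6 had been compared with DMSO libraries of its own. There 2806 genes (12.4%) were called, 1266 higher (5.57%) and 1540 lower (6.78%), and 464 (2.04%) with the GC trend removed, 259 higher (1.14%) and 205 lower (0.903%). Among well measured genes the GC correlation was stronger at 24 h, with r of -0.776, and -0.243 remained after removal. Of the 466 genes called at 6 h, 208 were called the same way at 24 h, which is 44.6% of the 6 h calls and 7.41% of the 24 h calls, and 7 were called the other way. With the GC trend removed 62 were shared, 15.4% of the 6 h calls and 13.4% of the 24 h calls. The 24 h count was 1513 without PFI-6 replicate 2 of 24 h and 1418 without DMSO replicate 3 of 24 h.

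MYC was at 398, 395 and 397 CPM with PFI-6 for 24 h and at 451, 440 and 448 CPM with its DMSO (log2 fold change -0.17, and -0.13 with the GC trend removed, adjusted p = 0.0049). HOXA10 had -0.20 at 24 h (adjusted p = 0.0019), and -0.16 with the GC trend removed (adjusted p = 0.052). PITX1 had -0.25 at 24 h (adjusted p = 0.0103), and -0.01 with the GC trend removed (adjusted p = 0.9). TLR1 was at 11.6, 11.1 and 11.1 CPM with PFI-6 for 24 h and at 9.37, 8.39 and 8.78 CPM with DMSO (log2 fold change 0.35, and 0.29 with the GC trend removed). IPCEF1 had 0.36, and 0.31 with the GC trend removed. The 24 h libraries are separate from the 6 h libraries. In each of these 5 genes the groups of CPM, as counted, were apart at both times. At 6 h this held for 20.6% of all genes tested, and lack of overlap was part of how some of these genes were named. The share at 24 h was not counted. CDKN1B had -0.01 at 24 h, with 117, 114 and 118 CPM against 119, 118 and 114 CPM, and the change of its effect between times was not called (adjusted p = 0.147).

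The effect of PFI-6 itself changed between 6 and 24 h for 27 genes (0.119%), 23 of them with a higher value at 24 h (0.101%) and 4 with a lower one (0.0176%). Once the GC trend was removed it was 56 (0.247%), 51 higher (0.225%) and 5 lower (0.022%). At an unadjusted p under 0.05, 2470 genes differed between times. The count was 8 without DMSO replicate 3 of 24 h, 56 without DMSO replicate 2 of 24 h, 67 without DMSO replicate 1 of 6 h, and 16 and 47 without PFI-6 replicates 1 and 3 of 6 h. KLF6, KLF4 and TSC22D3 were called in every fit that left out 1 library of the 4 groups. KLF6 was at 54.5, 57.8 and 59.8 CPM with PFI-6 for 24 h and at 41.4, 51.3 and 48.1 CPM with DMSO for 24 h. Its PFI-6 libraries spanned the same range at both times, while the DMSO level was higher at 6 h than at 24 h. The log2 fold change went from -0.33 to 0.29, a difference of 0.62 ± 0.09 (SE, adjusted p = 0.00615). KLF4, a factor of monocyte maturation, went from -0.44, a call at 6 h that was lost without any 1 of the 6 libraries, to 0.44 (difference 0.88, adjusted p = 0.00712). TSC22D3, a glucocorticoid-induced gene, went from -0.22, a call at 6 h that was lost without any 1 library but DMSO replicate 1, to 0.29 (difference 0.51, adjusted p = 0.00355). NR4A2 was at 7.62, 8.32 and 9.34 CPM with PFI-6 for 24 h and at 6.58, 7.58 and 6.99 CPM with DMSO, a difference between times of 0.73 (adjusted p = 0.00712, and 0.0523 without DMSO replicate 3 of 24 h).

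**Figure D5:**
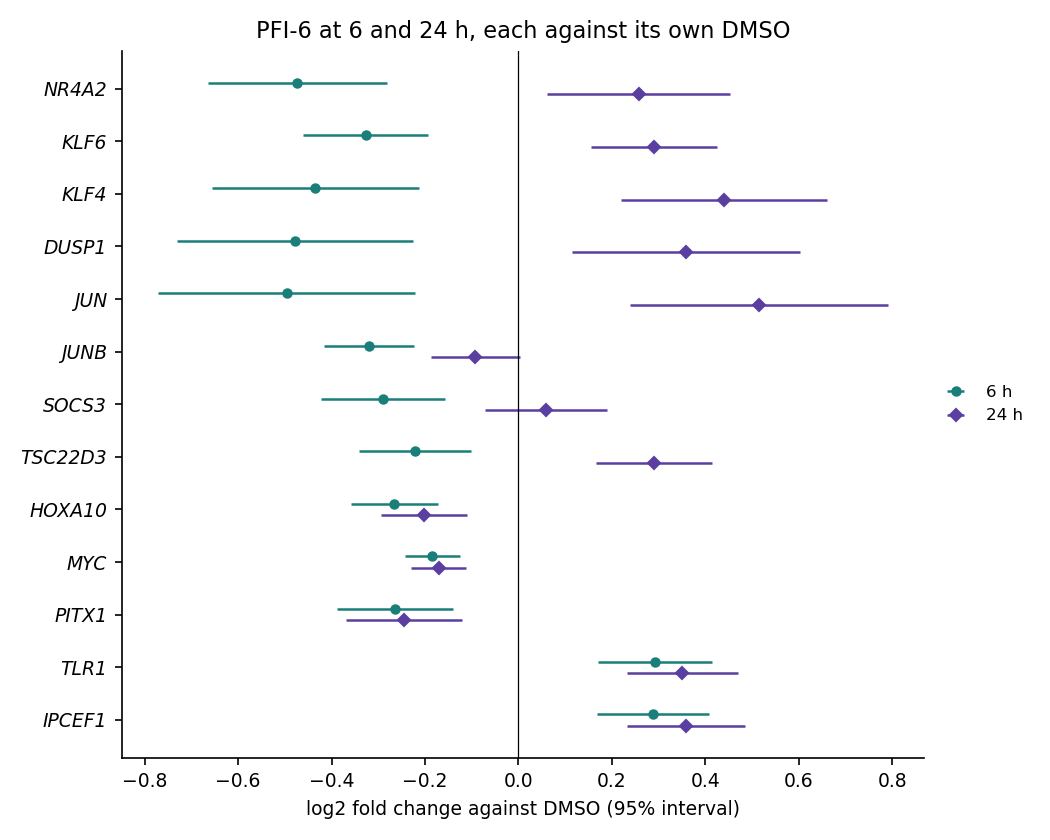
Log2 fold change with its 95% interval (x) for 13 genes (rows) with PFI-6 at 6 and at 24 h, each against DMSO of the same time. Values are as counted: HOXA10, MYC, PITX1, TLR1 and IPCEF1 have the same sign at both times (PITX1 at 24 h is -0.01 with the GC trend removed), while NR4A2, KLF6, KLF4, DUSP1, JUN and TSC22D3 are below 0 at 6 h and above 0 at 24 h.

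The guide libraries gave a list of genes chosen in other samples. Guides against ENL, compared with the control guide, moved 539 genes up and 145 down by at least 0.5 in log2 with an adjusted p under 0.05 that were also tested with the compounds. In the guide libraries themselves 3% of 17984 genes moved up and 0.823% down this way. With PFI-6 at 6 h, 20 of the 539 (3.71%) were higher and 1 was lower, against 0.66% and 1.39% of all genes tested. Well measured genes were called more often than all genes tested, which these shares do not take into account. Their median log2 fold change was 0.05. Of the 145, 15 (10.3%) were lower and 1 was higher, with a median of -0.06. With the GC trend removed, 0.515% of all genes tested were higher and 1.26% lower. The counts were then 20 higher (3.71%) and 5 lower (0.928%) of the 539. They were none higher and 11 lower (7.59%) of the 145. The medians of the 539 and the 145 were 0.06 and -0.03. With MS41 at 6 h the medians of the same genes were 0.39 and -0.24, and with MS41N 0.03 and -0.00. IPCEF1 had a log2 fold change of 1.86 with the guides, TLR1 0.72 and JAML 2.17, and HOXA10 had -1.40 and HOXA9 -0.74. Not all named genes moved the same way. KLF4 had 0.75 with the guides and -0.44 with PFI-6 at 6 h, and ALDH1L2 had -1.02 and 0.10. MYC had -0.23 with the guides and was not called there (adjusted p = 0.0689 in edgeR's quasi-likelihood test). The targeted gene MLLT1 had -0.63 with the guides, a transcript value that does not measure the protein.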

How the data were processed

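RNA was measured by sequencing of polyadenylated RNA. Per the submitters' processing notes, the tools named for the files are CASAVA 1.8, HISAT2 2.1.0 and HTSeq 0.11.3, with build hg38; the counting settings, strand use included, are not given in the sources used here, so overlapping and antisense genes cannot be told apart. The deposited tables hold raw counts per gene, and all 58721 gene identifiers matched GENCODE 29. From these counts, edgeR 4.0.16 in R 4.3.3 fitted the 24 MV4;11 compound libraries together (quasi-likelihood, robust, TMM factors, filterByExpr, 22711 genes, 16 residual degrees of freedom, biological coefficient of variation 4.78%). Genes were called at a Benjamini-Hochberg adjusted p under 0.05. Every comparison was repeated with a trend of each library's log2 CPM deviation on transcript GC content (natural cubic spline, 5 degrees of freedom, centred at its median) as an offset; this is the one form of trend and of centring that was run, apart from the variants named in the closing section. The guide libraries were fitted on their own. Standard errors follow from the F statistic, and CPM carry TMM factors. The method was tested on simulated data.

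The members and lists were chosen with earlier results of these data known. The genes named are 14 set genes of ENL biology, the 12 largest rises and falls called in both fits with groups that do not overlap and an average log2 CPM of at least 3, up to 4 called members per list, the 5 largest differences each way against MS41 and between times, and 4 genes each way whose call depended on GC. The 8 largest protein-coding changes each way and the genes that differed from MS41N were added after seeing the values, as were list members outside this rule (FOS, EGR1, KLF10, IRF8, SATB1, ZEB2). Some genes that this rule names are not reported here. Within the PFI-6 and DMSO groups of 6 h, no 2 libraries agreed within sampling noise; other groups were not checked for this.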

Additional observations from a re-analysis of the deposited data

Results flagged for a closer look

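In 9 named genes the effect of PFI-6 against DMSO differed between 24 h and 6 h by a test of the difference itself. On the log2 scale the 24 h effect was higher by 1.01 in JUN, 0.88 in KLF4, 0.73 in NR4A2, 0.62 in KLF6, 0.51 in TSC22D3 and 0.17 in ZFP36L2. It was lower in MAD1L1 (-0.35), the pseudogene AC026403.1 (-0.23) and NT5DC2 (-0.21). JUN, MAD1L1, NT5DC2 and AC026403.1 were not called at 6 h itself. NT5DC2 and AC026403.1 were no longer called with the GC trend removed (adjusted p = 0.123 and 0.218 in edgeR's quasi-likelihood test). JUN lost its call without PFI-6 replicate 2 or DMSO replicate 3 of 6 h, any PFI-6 replicate of 24 h, or DMSO replicates 1 or 3 of 24 h, where the adjusted p was between 0.0515 and 0.112. ZFP36L2 lost it without PFI-6 replicate 1 of 6 h (adjusted p = 0.0839) and DMSO replicate 3 of 24 h (adjusted p = 0.0901), and MAD1L1 without PFI-6 replicate 2 (adjusted p = 0.0504) or DMSO replicate 3 (adjusted p = 0.0557) of 24 h.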

How the results depend on the processing

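The 6 h count of 466 was 426 with RLE factors, 422 with upper quartile factors (197 higher and 225 lower), 614 under a stricter filter (262 higher and 352 lower), 723 with no filter, 886 with the 6 libraries alone, 806 with DESeq2 and 441 with GC and length trends removed (94 higher and 347 lower). With 1 library left out it was between 108 and 304. The 404 calls with the GC trend removed became 729 with the 6 libraries alone and 218, 140, 181, 119, 221 and 276 with 1 library left out (PFI-6 replicates 1, 2 and 3, then DMSO replicates 2, 3 and 1). At 24 h the count of 2806 was 464 with the GC trend removed, 545 with GC and length trends removed, and between 1418 and 2510 with 1 library left out. The 27 changes between times were 47 with upper quartile factors, 200 with no filter, 69 under the stricter filter, 56 with the GC trend removed, 64 with GC and length trends removed, and between 8 and 67 with 1 library left out. The 3 differences from MS41N were 1 with RLE factors, 1 with upper quartile factors, 20 with no filter, 8 under the stricter filter, 5 with the GC trend removed, 7 with GC and length trends removed, 25 with DESeq2, and between 1 and 5 with 1 library left out. The 5 found with the GC trend removed were 11 with the trend fitted on well measured genes. The cause of these moves was not tested. The trend fitted on well measured genes, DESeq2 for MS41N, and the upper quartile, stricter filter and length settings outside the 6 h count were chosen after seeing the data.

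MLLT1 turned to 0.0017 with the GC trend removed and PFI-6 replicate 1 left out, and MLLT3 to -0.0366 and -0.017 with the GC trend removed and PFI-6 replicate 1 or DMSO replicate 2 left out.

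Same-numbered libraries of the 6 h groups correlated in their deviations between -0.01 and 0, and different-numbered ones between -0.01 and 0.01. At 24 h the values were between 0.01 and 0.05 for the same number and between -0.04 and 0.01 for different numbers. These correlations run over all genes tested, so they cannot exclude a pairing by number. With the number as a replicate block the 6 h count was 494, the change between times 55, and the differences from MS41N 5, or 8 with the GC trend removed as well; 81 of 82 named calls at 6 h were kept under the block. The low levels of MLLT3, CYBB and ZNF154, under 3 CPM in the PFI-6 and DMSO libraries of 6 h, limit the precision of their values.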

Other observations

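Replication-dependent histone genes, whose messages mostly lack a poly(A) tail, had a median log2 fold change of 0.17 over 59 tested and none was called in either fit. Of 223 zinc finger genes on chromosome 19, 1 was higher and 1 lower, ZNF154 (0.85) and ZNF574 (-0.21), where 0.66% of all genes tested were higher and 1.39% lower. ZNF574 was not called with the GC trend removed (adjusted p = 0.155) and lost its call without PFI-6 replicates 2 or 3 or DMSO replicates 1 or 2. ZNF154 was at 1.42, 1.75 and 1.89 CPM with PFI-6 and at 1.12, 0.770 and 0.90 CPM with DMSO, and lost its call without PFI-6 replicates 2 or 3 or DMSO replicate 2 (adjusted p between 0.0598 and 0.0863 in edgeR's quasi-likelihood test). CTSG and MS4A3, from a list of 10 genes of immature myeloid cells, were lower (log2 fold changes -0.13 and -0.10), and the other 8 of that list were not called. CTSG was not called with the GC trend removed (adjusted p = 0.0724) and lost its call without PFI-6 replicates 2 or 3 or DMSO replicates 1 or 2, and MS4A3 lost its call without any 1 of the 6 libraries. MT1F, a metallothionein, was lower (log2 fold change -0.22) and was not called with the GC trend removed (adjusted p = 0.0853), nor without PFI-6 replicates 2 or 3 or DMSO replicates 1 or 2.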
